A study of Mus musculus with 8 samples.

Results

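The first 4 days of PU.1 restoration were followed by comparing the list of PU.1 binding sites titled restoration Day 0 with the list titled restoration Day 4, both from chromatin immunoprecipitation and sequencing (ChIP-seq) of the mouse acute myeloid leukaemia line AML246. A site was the summit of a called peak, and the rule for a shared site was a distance of at most 100 bp between summits of both lists. By this rule 56113 of 57424 day 4 sites (97.7%) had no day 0 counterpart, and these are called new below. The day 4 list was 7.14 times as long as the day 0 list, so the rule was also applied to lists of equal length, for which the day 4 list was reduced to its highest scores. Of the day 4 sites kept, 7248 (90.1%) were new and 795 were shared. Of 21883 nuclear protein-coding genes in mm10, 8265 (37.8%) had a day 4 site in the gene body or within 10 kb and none at day 0, and 2528 (11.6%) did so in the lists of equal length. All 7 deposited lists of the series together held 365360 sites.

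Day 0 cells were labelled untreated and day 4 cells had received 4 days of doxycycline (Dox), which the protocol gives as 0.1 ug/mL from day 0 until its removal on day 12 of a 24 day course. Cells of both days grew in IMDM with 10% FCS and IL-3, and total viable cells were sorted by flow cytometry before the immunoprecipitation. The labels name no allele, promoter or construct behind the Dox response, nor whether AML246 is 1 clone. The 5 other lists, used only to follow the sites, came from 8 and 12 days of Dox and from 3 libraries titled knockdown, here called Day 12- 4, Day 12- 8 and Day 12- 12. The treatment labels of these 3 disagree with their titles, and give 12 days of Dox with a Cd11b-high sort, 4 days off Dox and 8 days off Dox. Each time point had 1 library, so no difference below has a replicate check, no p-value is given, and fewer bound cells cannot be told apart from less binding in each cell.

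PU.1, encoded by Spi1, is an ETS-family transcription factor that binds a purine-rich sequence around a GGAA core. It is required for the production of macrophages, granulocytes and B cells, and it acts at promoters and at distant enhancers of integrins, growth factor receptors, Fc receptors and phagocyte enzymes. Reduced PU.1 activity is a known feature of acute myeloid leukaemia, in which immature myeloid cells accumulate.

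The promoters printed here are those with the highest-scoring summits of each class, so that the sequence under a new, a missing and a shared call can be seen side by side. The score of a summit is the deposited −log10 q-value of its peak, which ranks sites within 1 list and does not measure a change between lists. Each sequence runs 5′ to 3′ on the strand of its gene, from 250 bases before to 50 bases after the start, and comes from RefSeq (GRCm38.p6, the mm10 coordinates). Capitals mark GAGGAAGT or its reverse complement ACTTCCTC, a PU.1-type ETS motif. The first 4 promoters held the highest-scoring new day 4 summits, and 3 of them contained the motif.
Gm14548: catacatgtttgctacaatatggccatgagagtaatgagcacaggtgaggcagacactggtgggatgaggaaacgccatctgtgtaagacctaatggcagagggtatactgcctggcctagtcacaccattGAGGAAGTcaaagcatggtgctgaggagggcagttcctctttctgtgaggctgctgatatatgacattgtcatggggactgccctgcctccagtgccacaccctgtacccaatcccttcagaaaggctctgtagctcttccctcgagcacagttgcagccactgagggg
Lilra6: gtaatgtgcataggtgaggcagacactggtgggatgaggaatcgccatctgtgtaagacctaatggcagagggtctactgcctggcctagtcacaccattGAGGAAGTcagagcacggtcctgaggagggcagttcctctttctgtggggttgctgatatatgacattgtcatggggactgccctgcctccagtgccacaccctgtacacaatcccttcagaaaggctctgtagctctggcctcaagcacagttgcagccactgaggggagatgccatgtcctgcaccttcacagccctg
B430306N03Rik: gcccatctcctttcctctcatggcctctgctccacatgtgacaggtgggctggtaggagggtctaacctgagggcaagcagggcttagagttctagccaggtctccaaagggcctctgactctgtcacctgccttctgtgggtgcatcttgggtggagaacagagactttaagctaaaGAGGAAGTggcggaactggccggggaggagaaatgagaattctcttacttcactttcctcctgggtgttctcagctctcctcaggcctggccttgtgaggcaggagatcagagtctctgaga
Ncf1: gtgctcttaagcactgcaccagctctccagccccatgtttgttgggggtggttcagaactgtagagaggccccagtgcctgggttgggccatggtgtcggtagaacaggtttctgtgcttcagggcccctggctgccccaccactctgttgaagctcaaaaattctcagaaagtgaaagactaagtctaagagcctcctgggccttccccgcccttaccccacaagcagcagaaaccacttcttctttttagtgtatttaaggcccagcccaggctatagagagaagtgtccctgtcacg

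The Gm14548 promoter (chr7:3898092-3898391, minus strand) held a day 4 summit with a score of 605, centred 18.5 bp from the middle of the motif. Gm14548 and Lilra6, the gene of a leukocyte immunoglobulin-like receptor, are near-identical copies, and their promoters matched at 95.2% of 269 aligned bases. Reads could therefore have been split or swapped between the Gm14548 and Lilra6 (chr7:3915452-3915751, minus strand, score 465) windows. The B430306N03Rik promoter (chr17:48315912-48316211, plus strand) had a score of 446, with the summit 13.5 bp from the motif. The promoter of Ncf1 (chr5:134229576-134229875, minus strand, score 425), which encodes the p47phox subunit of the phagocyte NADPH oxidase, held neither GAGGAAGT nor the general ETS motif CCGGAAGT. These 4 summits were also called at day 8 (scores of 321, 374, 174 and 190.2), at day 12 and in the Day 12- 4 and Day 12- 12 libraries, and none had a summit in the window in the library titled Day 12- 8.

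The next 2 promoters held the highest-scoring day 0 summits that had no day 4 summit within 100 bp, and the last 2 held the shared summits with the highest day 4 scores.
Atxn2l: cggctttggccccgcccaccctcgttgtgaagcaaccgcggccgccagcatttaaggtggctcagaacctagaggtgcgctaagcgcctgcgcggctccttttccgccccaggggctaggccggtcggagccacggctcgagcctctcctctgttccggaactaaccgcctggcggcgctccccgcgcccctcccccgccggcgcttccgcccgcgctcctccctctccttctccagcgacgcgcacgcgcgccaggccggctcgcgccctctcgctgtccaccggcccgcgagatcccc
Cbfb: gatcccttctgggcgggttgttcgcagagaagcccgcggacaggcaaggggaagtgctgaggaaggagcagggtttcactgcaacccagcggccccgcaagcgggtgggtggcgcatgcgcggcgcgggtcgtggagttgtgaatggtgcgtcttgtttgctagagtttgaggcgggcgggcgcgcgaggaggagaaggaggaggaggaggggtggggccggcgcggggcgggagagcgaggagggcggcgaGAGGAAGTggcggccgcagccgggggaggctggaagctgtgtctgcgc
Fgd2: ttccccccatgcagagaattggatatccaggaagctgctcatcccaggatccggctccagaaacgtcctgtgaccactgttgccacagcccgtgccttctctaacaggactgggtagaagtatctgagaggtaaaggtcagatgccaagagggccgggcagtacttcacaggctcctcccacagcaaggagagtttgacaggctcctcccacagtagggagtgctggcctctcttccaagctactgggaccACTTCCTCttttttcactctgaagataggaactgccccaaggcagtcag
Cd300lf: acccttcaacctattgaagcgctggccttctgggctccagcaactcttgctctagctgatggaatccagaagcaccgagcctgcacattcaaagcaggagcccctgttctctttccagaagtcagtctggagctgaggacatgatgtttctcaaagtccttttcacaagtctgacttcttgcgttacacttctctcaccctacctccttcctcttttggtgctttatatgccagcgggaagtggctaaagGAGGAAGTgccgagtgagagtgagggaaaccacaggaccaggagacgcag

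The Atxn2l promoter (chr7:126503388-126503687, minus strand) had a day 0 score of 245, 73.0% GC and no PU.1-type motif. Its nearest day 4 summit lay 129 bp away with a score of 228, so it was missing by the 100 bp rule although day 4 had a site beside it. The promoter of Cbfb (chr8:105170424-105170723, plus strand), which encodes the partner of RUNX factors, was alike in this respect. Its day 0 score was 146, and a day 4 summit with a score of 168 lay 217 bp away. The shared summit at Fgd2 (chr17:29360664-29360963, plus strand), a guanine nucleotide exchange factor gene, lay 3.5 bp from the motif with a day 0 score of 96.7 and a day 4 score of 642. The shared summit at Cd300lf (chr11:115133943-115134242, minus strand), which encodes an inhibitory myeloid receptor, lay 4.5 bp from the motif, where the day 0 score was 12 and the day 4 score 602.

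Across all promoters, the PU.1-type motif was more common under new day 4 summits than in promoters at large. A search on both strands found GAGGAAGT in 665 of 21237 promoter windows (3.13%) and CCGGAAGT in 5.15%. The GGAA core, which both motifs contain, was in 95.7% of windows and so separated little. In the full lists, promoters with a new day 4 summit held the PU.1-type motif in 214 of 2416 cases (8.86%, exact 95% interval 7.75 to 10.1), those with a shared summit in 91 of 425 (21.4%, 17.6 to 25.6), and those with a day 0 summit missing at day 4 in 19 of 1206 (1.58%, 0.951 to 2.45). In the lists of equal length it was found in 103 of 487 new (21.1%, 17.6 to 25), 64 of 166 shared (38.6%, 31.1 to 46.4) and 42 of 1436 missing promoters (2.92%, 2.12 to 3.93). Shared promoter sites thus held the motif most often in both, and missing ones least often. Intervals here and below cover counting error only. The general ETS motif followed another order, with 16.3% of new, 13.9% of shared and 7.46% of missing promoters in the full lists, and 15.0%, 13.9% and 8.36% in the lists of equal length.

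The motif lay close to the day 4 summits. Where a promoter with a new summit held GAGGAAGT, the median distance from summit to motif centre was 12.5 bp, and 182 of 214 summits (85.0%) lay within 50 bp. For shared promoter sites the median distance was 6.5 bp from the day 4 summit and 30.5 bp from the day 0 summit. For day 0 summits missing at day 4 it was 68.5 bp over the 19 promoters with a motif. With new promoter sites in 5 equal groups by day 4 score, the share with the PU.1-type motif was 20.9% in the highest group, then 9.73%, 5.59%, 3.93% and 4.13%. The intervals of 3.93% (2.38 to 6.08) and 4.13% (2.54 to 6.31) included the 3.13% of all promoters. For the general ETS motif the share was between 12.4% and 19.3% in all 5 groups, against 5.15% of all promoters.

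Base composition differed between these classes. In the full lists, median GC was 56.7% for promoters with a new summit, 65.7% for shared and 72.0% for those missing at day 4, against 56.3% for all windows. Within the most GC-rich of 3 equal groups of promoters, GAGGAAGT was found in 7.63% of new (40 of 524, 5.51 to 10.2), 18.9% of shared (60 of 317, 14.8 to 23.7) and 1.63% of missing promoters (19 of 1168, 0.982 to 2.53) of the full lists, and in 2.15% of all promoters of that group. The order of the 3 classes was thus the same within this group.

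**Figure D1:**
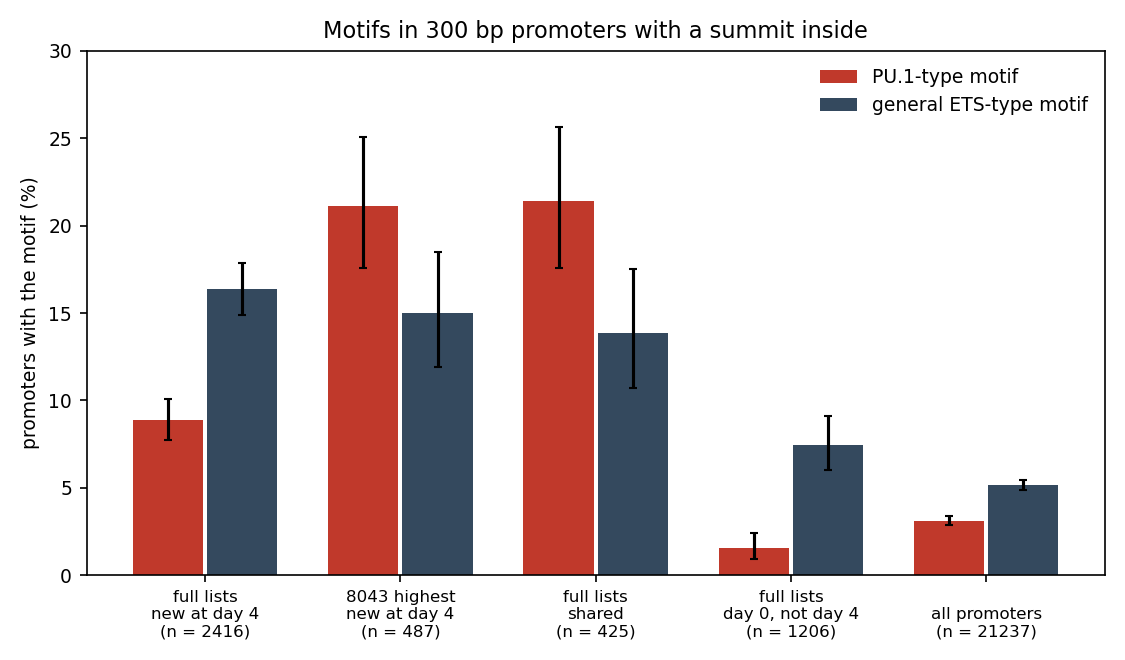
Share of 300 bp promoter windows that held the PU.1-type motif (red) or the general ETS motif (dark), by the class of the summit inside, with exact 95% intervals (counting error only) and the number of promoters under each pair of bars. In the full lists the PU.1-type share was 8.86% for new, 21.4% for shared and 1.58% for missing day 0 sites, against 3.13% of all promoters, and the second pair of bars shows new sites in the lists of equal length (21.1%).

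Few day 0 sites were called again at day 4. A day 4 summit lay within 100 bp of 1311 day 0 sites (16.3%, 15.5 to 17.1), within 500 bp of 24.5% and within 2 kb of 37.8%, despite the longer day 4 list. The other 6732 day 0 sites (83.7%) had none within 100 bp. Shared summits lay a median of 25 bp apart. In the lists of equal length 795 day 0 sites (9.88%, 9.24 to 10.6) were shared and 7248 (90.1%) were not. The last site of the day 4 list of equal length had a score of 56.2, the same as the first site left out, because 86 sites tied there and 10 of them were kept.

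Sharing was concentrated in the strongest calls of both days. With day 0 sites in 5 equal groups by score, 45.3% of the highest group (scores from 17.2) were shared (42.8 to 47.7), and 6.34% to 11% of the other 4. Of day 4 sites grouped alike, 7.72% of the highest group and 0.270% of the lowest were shared. The median day 4 score was 110 for shared and 11.3 for new sites. The median day 0 score was 20.2 for shared and 8.83 for missing sites.

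New day 4 sites lay mostly away from gene starts, and day 0 sites mostly at them. Among new sites 8.27% (8.04 to 8.50) lay within 1 kb of a start, 48.4% elsewhere in a gene body, 14.4% in the 10 kb beside a gene and 28.6% farther away. Among day 0 sites missing at day 4 these shares were 57.3%, 31.3%, 4.38% and 5.78%, and among shared sites 43.6%, 28.1%, 11.1% and 16.9%. The median distance to a start was 27.6 kb for new sites, 3.36 kb for shared and 0.433 kb for missing ones. The contrast was present among the highest scores as well, where 11.6% of new sites in the lists of equal length lay near a start. Starts were known for 17491 of the 21883 genes (79.9%), with none on chromosome 18, so the shares near starts are low estimates. On chromosomes with starts they were 8.56% of new, 45.1% of shared and 59.8% of missing sites. Exons and introns were not separated.

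**Figure D2:**
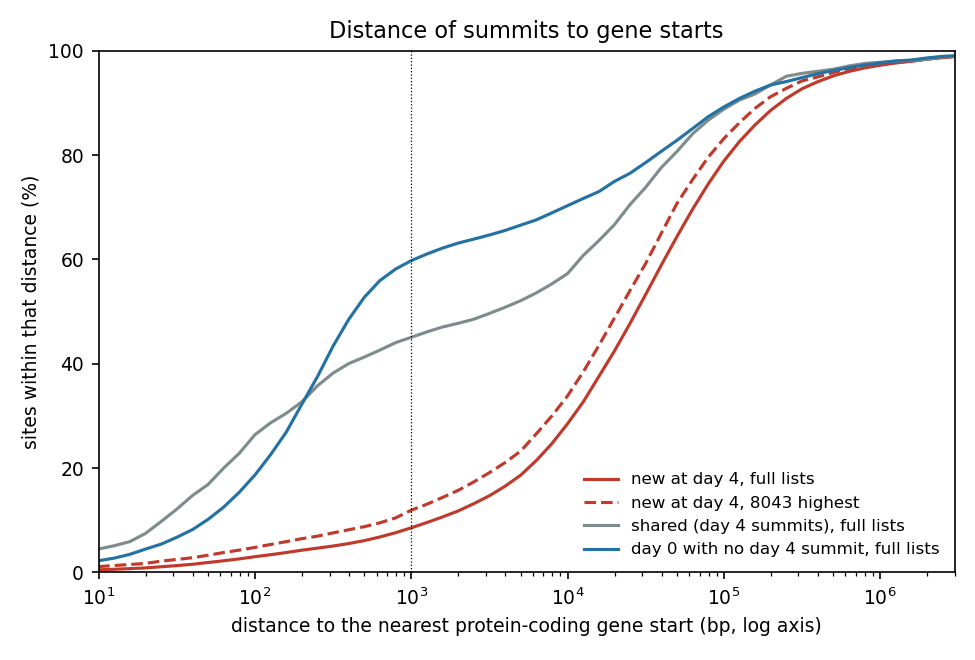
Cumulative share of sites (vertical axis, %) within a given distance of the nearest protein-coding gene start (horizontal axis, bp, log scale), over chromosomes with known starts, for new (red, dashed for the lists of equal length), shared (grey) and missing day 0 sites (blue). The dotted line marks 1 kb, where the curves stand at 8.56% for new, 45.1% for shared and 59.8% for missing sites.

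The strongest new sites stood at genes of several kinds and were mostly called again later. The highest day 4 score at a place without a day 0 summit in 500 bp was 635, reached at 2 sites. The first was in Mthfd1 (chromosome 12, position 76319081), a folate metabolism gene, and was called at 161 on day 8, 206 on day 12, 56.5 in Day 12- 4 and 87.1 in Day 12- 12. The second was in Babam2 (chromosome 5, position 32077273), a gene of the BRCA1-A complex, and was called at 490.3 on day 8, 32.1 in Day 12- 4 and 68.9 in Day 12- 12 but not on day 12. The Gm14548 promoter site came next. It was followed by a site 9.98 kb outside Esr1, the oestrogen receptor gene, with a score of 585. The other 6 had scores between 522 and 567 and lay nearest to Atp1b3, Gcn1, Irf2bp2 (162 kb away), Zyx, Lilra5 and Syt14. The site in Zyx, which encodes the focal adhesion protein zyxin, scored 531 on day 4, 198 on day 8, 131 on day 12, 26.5 in Day 12- 4 and 58.5 in Day 12- 12. All 10 sites were called at day 8, 9 at day 12, and none in the library titled Day 12- 8.

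Some strong day 0 sites missing at day 4 were called in every other library. Of the 6 best-scoring sites of day 0 without any day 4 summit in 500 bp, 4 were called in all 5 other lists. These lay at Arhgdia, Plcl2, Gtf2ird2 and Pias1. The site 5 bp outside Arhgdia, which encodes a GDP dissociation inhibitor, scored 89.0 on day 0, 222 on day 8, 227 on day 12, 15.5 in Day 12- 4, 86.2 in Day 12- 8 and 52.0 in Day 12- 12, and its nearest day 4 summit was 507 bp away. The site in Pias1, which encodes a SUMO ligase, scored 84.3 on day 0, 111 on day 8 and 147 on day 12, with the nearest day 4 summit 27.4 kb away. In all, 1143 of the 6732 missing sites (17.0%, 16.1 to 17.9) were called at both day 8 and day 12, and 1014 of these had no day 4 summit within 500 bp. Near gene starts lay 69.6% of the 1143, against 52.8% of the 4626 called at neither day. A missing call is not absence of binding.

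Among shared sites, the one ranked best in both lists was in Tsc22d1, a TGF-beta-responsive gene, with scores of 416 on day 0 and 692 on day 4. It was called in all 5 other libraries, at 14.7 on day 8 and between 636 and 798 in the other 4. The next 5 lay at Mknk1, Rere, Psmg3, Trim7 and Rasa3, with day 0 scores of 106 to 180.1 and day 4 scores of 490.3 to 711.

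New day 4 sites recurred most in the day 8 library, and recurrence followed their score. Of the 56113 new sites, 42.1% had a summit within 100 bp at day 8, 33.7% at day 12, 9.48% in Day 12- 4, 2.41% in Day 12- 8 and 25.9% in Day 12- 12. No other library called 25892 of them (46.1%, 45.7 to 46.6), and all 5 called 911 (1.62%). In the highest of 5 equal groups by score (from 36.3) 91.7% recurred at day 8 and 75.2% at day 12, and 4.34% were called nowhere else. In the lowest group the day 8 share was 7.88% and 75% were called nowhere else. These lists were not used to choose the new sites, but they differ in length from 9868 sites (Day 12- 4) to 148415 (Day 12- 12), and a longer list matches more sites.

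The order of the other libraries differed at equal list length. Set against as many of the highest-scoring sites of each library, the 7248 new sites of the lists of equal length recurred at 61.2% on day 8 (60.1 to 62.4), 43.0% in Day 12- 4, 35.3% in Day 12- 12, 30.8% on day 12 and 3.73% in Day 12- 8 (3.30 to 4.19). Day 0 sites missing at day 4 had another order in the same comparison. They recurred most in Day 12- 8 (27.8%), followed by 17.8% on day 8, 13% on day 12, 10.3% in Day 12- 4 and 7.62% in Day 12- 12.

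**Figure D3:**
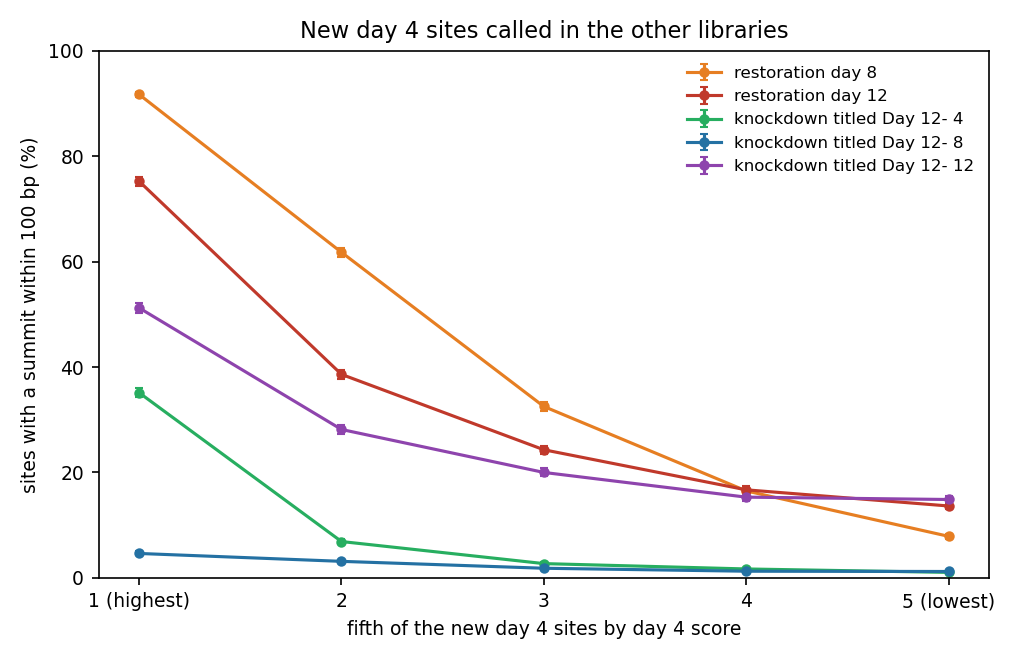
Share of the 56113 new day 4 sites with a summit within 100 bp in each other library (vertical axis, %), by day 4 score in 5 equal groups (horizontal axis, highest first), with exact 95% intervals (counting error only). The day 8 share falls from 91.7% to 7.88%, and the Day 12- 8 share is 4.62% at its highest.

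A day 4 site was found at 15264 genes (69.8%) and a day 0 site at 8050 (36.8%). Both days had a site at 6999 genes (32.0%), and 5568 (25.4%) had none. A further 1051 (4.80%) had a day 0 site and no day 4 site. In the lists of equal length 3050 genes (13.9%) had both and 11305 (51.7%) neither. A day 0 site alone was held by 5000 (22.8%), more than the 2528 with a day 4 site alone. At this length the day 0 list was whole and the day 4 list stopped at a score of 56.2. In the full day 4 list those 5000 genes had a median of 2 sites, so a day 0 site alone at equal length does not mean no day 4 call. Of the 6999 genes with sites on both days, 5461 (78.0%) shared no site within 100 bp. Short genes were new less often, at 7.59% of the shortest of 4 equal groups against 12.4% to 13.3% of the other 3 in the lists of equal length.

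The genes with most day 4 sites and none at day 0 were long. Nav2 (651 kb) and Tbc1d22a (284 kb) each had 31 day 4 sites, Creb5 28, Itpr1 27, Mad1l1 26 and Syn3 26. The highest Nav2 score was 467, in its gene body. In the library titled Day 12- 8, which had few of the new sites, Nav2 still had 4 sites with scores up to 10.9.

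The genes described next were grouped by role in 19 lists, and a list is read by its counts beside those of all genes. Where new members are named, the first 4 by score follow a fixed rule, and further genes were chosen after their values were seen. For each gene the score is that of its highest site in the body or within 10 kb, which can lie nearer another gene. The median of this score over all 21883 genes, counting genes without a site as 0, was 15.6 at day 4.

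Integrins and adhesion molecules, which carry leukocytes out of the blood, were new at 10 of 14 genes (9 of 14 in the lists of equal length), against 37.8% of all genes (11.6% at equal length). Their median day 4 score was 175. Itgb2, the CD18 subunit common to the leukocyte integrins, had no day 0 site and 14 day 4 sites. Its highest score was 284 on day 4, 186 on day 8, 401 on day 12, 20 in Day 12- 4 and 126 in Day 12- 12, with no call in Day 12- 8. The alpha subunit genes Itgax (CD11c) and Itgam (CD11b) reached 228 and 86.2 on day 4. The highest Itgax score was 35.0 on day 8 and 16.5 on day 12. Pecam1, an endothelial and leukocyte adhesion molecule, had 14 day 4 sites up to 189. The Selplg site of 278 lay 9.49 kb outside that gene, nearer to Coro1c. Itgb1 alone ran the other way, with a day 0 score of 7.60 and no day 4 site.

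Growth factor and cytokine receptors were new at 7 of 12 genes (5 of 12 at equal length), against 37.8% and 11.6% of all genes, and the other 5 had sites on both days. Csf2rb, the signalling subunit shared by the receptors for IL-3, IL-5 and GM-CSF, had 8 day 4 sites and none on day 0. Its highest score was 218 on day 4, 117 on day 8, 290.5 on day 12, 27.1 in Day 12- 4, 5.20 in Day 12- 8 and 127 in Day 12- 12. Ifngr1 and Tnfrsf1b, receptors for interferon gamma and TNF, reached 322 and 245. The Csf2rb2 site of 182 lay 51 bp from a start. Csf1r, the M-CSF receptor and a classical PU.1 target, had 6 day 4 sites up to 118. Csf3r (23.6) and Kit (13.4) were new in the full lists but had no site in the lists of equal length.

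Fc receptors and the ITAM signalling genes through which they act were new at 12 of 22 genes (10 of 22 at equal length), against 37.8% and 11.6% of all genes. Their median day 4 score was 198, and Lilr4b and Clec7a had no site on either day. Inpp5d, which encodes the SHIP1 phosphatase, had 16 day 4 sites. Its highest score was 465 on day 4, 479 on day 8, 443 on day 12, 74.2 in Day 12- 4 and 204 in Day 12- 12, with no call on day 0 or in Day 12- 8. Clec12a, an inhibitory C-type lectin, reached 354 and Fcgr4, an activating Fc receptor, 260.5. The Pirb site of 272 lay 5.28 kb outside Pirb, nearer to Rps9. Among the 8 genes called on both days, the kinase gene Syk had no shared site and scores of 6.72 on day 0 and 509 on day 4. The adaptor gene Tyrobp had 1 shared site, and its highest scores were 36.5 on day 0 and 209 on day 4. These scores came from different sites, 2618 bp apart, the first nearer to Nfkbid and the second nearer to Hcst.

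The phagocyte oxidase genes had the highest median day 4 score of the lists, 329.7 over 6 genes. Rac2, the gene of a GTPase that activates the oxidase, was new, with 6 day 4 sites. Its highest score was 239 on day 4, 210 on day 8, 807 on day 12, 63.5 in Day 12- 4, 11.4 in Day 12- 8 and 309 in Day 12- 12. Cyba, Ncf1 and Ncf4 each had 1 shared site. Their highest scores were 19.6, 8.30 and 5.36 on day 0 and 513, 433 and 397 on day 4. The highest day 4 site of Ncf4 lay 3775 bp from the nearest day 0 summit, so it was not the shared one. Cybb, the catalytic gp91phox subunit, stood apart with a new site of 7.87 and none in the list of equal length.

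Granule and lysosomal protein genes were new at 16 of 20 in the full lists and at 7 of 20 at equal length, against 37.8% and 11.6% of all genes, with a median score of 55.9. Ltf (lactoferrin) reached 278 with a site 3.66 kb outside the gene, Cd68 reached 147 at 16 bp from a start, and Lyz1 and its neighbour Lyz2 shared a site of 141. The Mpo site of 157 lay nearer to Lpo. The granule protein genes Camp (9.32), Lcn2 (13) and Ngp (18.7) had new sites with low scores and none in the list of equal length.

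Pattern recognition genes were new at 10 of 17 (6 of 17 at equal length) and chemoattractant receptors at 8 of 12 (4 of 12 at equal length), against 37.8% and 11.6% of all genes. The endosomal DNA receptor gene Tlr9 had a day 4 site of 331 at 7 bp from a start. The highest scores in the Tlr9 window were 77.9 on day 8, 77.2 on day 12, 7.48 in Day 12- 4, 15.0 in Day 12- 8 and 20.8 in Day 12- 12. Irak3 (171), Tlr2 (130.5) and Nlrp3 (124) followed. Nod2 and Tlr4 were called on both days, at 13.3 and 3.32 on day 0 and 748 and 369.7 on day 4. Tlr3 and Tlr7 had no site at day 0 or day 4. Of the chemoattractant receptors, Cx3cr1 (252), Ptafr (234), Cxcr2 (171) and Cxcr4 (79.7) were new, and Ccr2 had no site on either day.

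**Figure D4:**
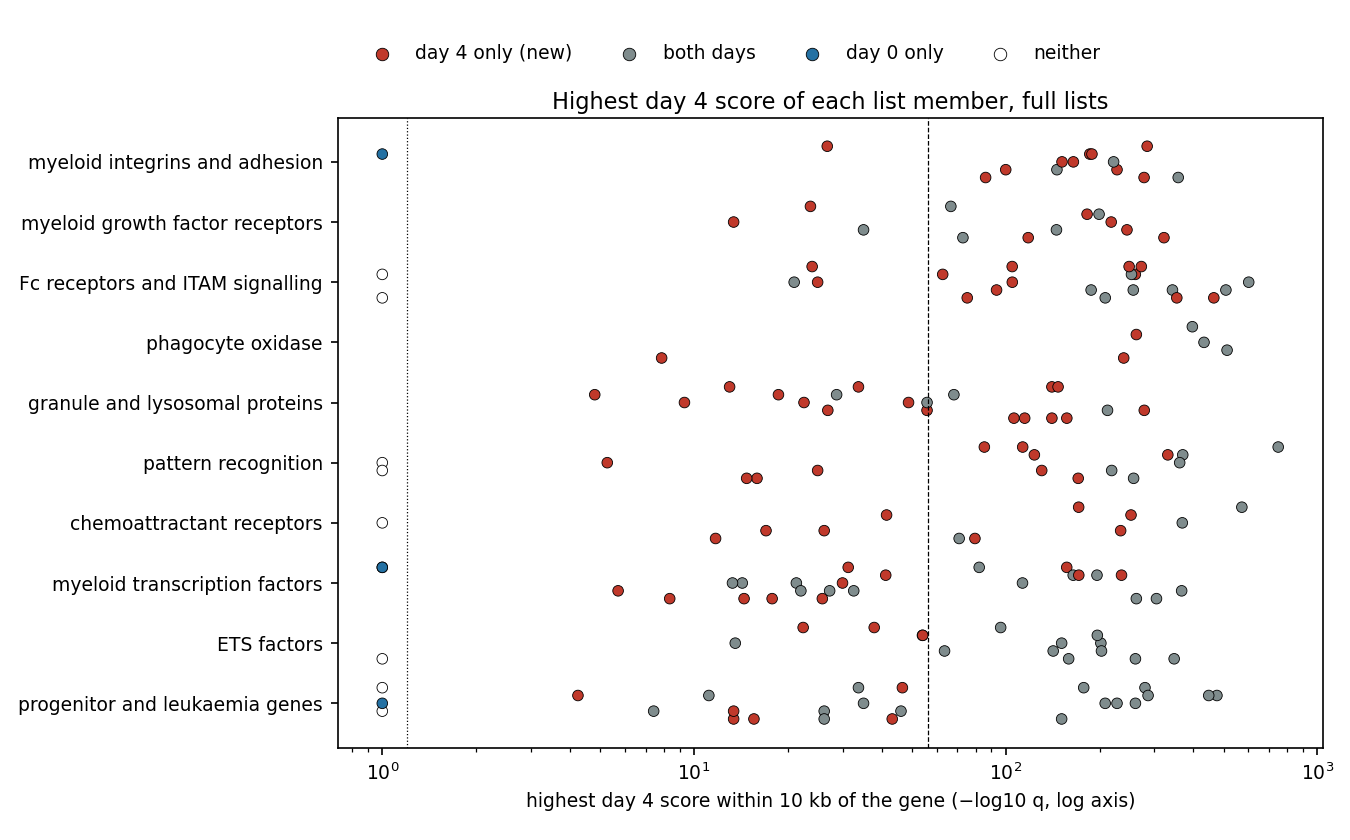
Highest day 4 score of each gene in 10 lists (horizontal axis, −log10 q on a log scale), with genes new at day 4 in red, called on both days in grey, at day 0 alone in blue and at neither in white. Points left of the dotted line had no day 4 site, and the dashed line is the lowest score in the list of equal length (56.2). A site in that list was held by 12 of 14 integrin and adhesion genes and 9 of 25 progenitor and leukaemia genes, against 25.5% of all genes.

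A day 0 site was held by 15 of 26 myeloid transcription factor genes, against 36.8% of all genes. New were 11 in the full lists and 3 at equal length (Fos, Nfe2 and Cebpe), or 42.3% and 11.5%, which is near the 37.8% and 11.6% of all genes. Both days had a site at 13, and Klf4 (8.93) and Maf (6.12) had a site at day 0 alone. The best day 4 site of Fos, which encodes an AP-1 subunit, lay 5.07 kb away. The highest score in the Fos window was 235 on day 4, 93.0 on day 8, 431 on day 12, 21.7 in Day 12- 4, 19.5 in Day 12- 8 and 108 in Day 12- 12. Cebpe, which drives late granulocyte maturation, reached 157 on day 4 and 408 on day 12. Cebpa had 10.3 on day 0 and 32.5 on day 4, and Irf8 18.9 and 21.3.

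ETS factor genes and progenitor genes mostly had sites before Dox, at 12 of 16 and 17 of 25 genes, against 36.8% of all genes. Their members were long, with medians of 55.2 and 69.7 kb against 17.2 kb for all genes. The part of gene length in these counts was not tested. Of 16 ETS genes, 12 were called on both days (against 32.0% of all genes) and 3 were new (against 37.8%) in the full lists. At equal length 0 were new, against 11.6% of all genes. With the 4000 or the 2000 highest sites of each list 2 were new, against 8.72% and 5.26% of all genes. The 3 new genes were Gabpa (54.2), Etv5 (37.8) and Spib (22.4). The Gabpa site lay inside Gabpa, 51 bp from a start, and was also assigned to the neighbour Atp5j. Etv6 had 24 day 4 sites, with scores up to 84.1 on day 0 and 261 on day 4, and Fli1 had 19, with 3.68 and 203. Of 25 progenitor and leukaemia genes, 16 were called on both days (against 32.0% of all genes) and 6 were new (against 37.8%) in the full lists. At equal length 0 were new, against 11.6% of all genes. With the 4000 and 2000 highest sites 2 and 3 were new, against 8.72% and 5.26% of all genes. A day 0 site alone was held by 8 of the 25 at equal length, against 22.8% of all genes. In the full lists only Hoxa9 had a day 0 site alone (12.8, nearer to Hoxa10). Runx1 had 16 day 4 sites and scores of 13 and 228, and Ikzf1 13 with 39.6 and 448. Kit and Cd34, markers of progenitors, had new sites of 13.4 each.

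The Spi1 gene itself (chr2:91082374-91115759) had 3 day 0 sites and 9 day 4 sites, 1 of them shared, in the body or within 10 kb. The shared site scored 16.1 on day 0 and 304 on day 4. The highest day 0 score in this window was 53.4. The strongest site nearby lay 11.8 kb outside the gene at day 0 (score 112) and 11.7 kb at day 4 (340.1). These summits were 115 bp apart, so they were not shared by the 100 bp rule. Binding lists do not report how much PU.1 the cells made.

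Lists for other cell types had more new members in the full lists than at equal length, as every list did. In the full lists 9 of 14 B-lymphoid (64.3%), 12 of 16 T-lymphoid (75%) and 7 of 14 erythroid and megakaryocytic genes (50%) were new. So were 8 of 11 mast cell and basophil (72.7%) and 8 of 24 non-haematopoietic genes (33.3%), against 37.8% of all genes. At equal length these counts were 2, 4, 1, 2 and 3 (14.3%, 25%, 7.14%, 18.2% and 12.5%), against 11.6% of all genes. The T-lymphoid share was the highest of these. In that list Cd3d and Cd3g owed their calls to the same site (75.9) in Cd3d, and the best Cd247 site lay nearer to Creg1. Their median day 4 scores were 33.9, 14, 9.76, 11.3 and 5.66. The highest in each were Blnk (117), Cd5 (136), Epor (129, nearer to Rgl3), Il4 (98.9) and Col1a1 (290.2). The haemoglobin genes Hba-a1 and Hbb-bs, albumin and the insulin genes had no site on either day.

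Of genes active in most cells, 3 of 28 cell cycle (10.7%) and 9 of 34 ribosomal protein genes (26.5%) were new at equal length. So were 2 of 23 housekeeping genes (8.70%) and 6 of 29 complex I genes (20.7%), against 11.6% of all genes. The ribosomal protein and complex I shares were thus above that of all genes. At equal length a day 0 site alone was held by 5, 8, 7 and 6 genes of these lists (17.9%, 23.5%, 30.4% and 20.7%), around the 22.8% of all genes. In the full lists it was held by 0, 0, 2 and 1, against 4.80% of all genes. Cdkn1a, the p21 cell cycle inhibitor gene, had the highest new score among cell cycle genes (186, at 8.91 kb from the gene). Rps9 had 272 from the site it shares with Pirb, and Ndufs8 had 289.9 from a site nearer to Tcirg1.

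The count of new members at equal length stood above the share of all genes under all 7 settings tried for the integrin and adhesion, growth factor receptor, Fc receptor, granule, pattern recognition and chemoattractant receptor lists. For the other 13 lists it stood above under some settings and below under others. It stood above under 6 of 7 for the phagocyte oxidase, B-lymphoid and ribosomal protein lists. For the ETS factor, progenitor and leukaemia, and housekeeping lists it stood above under 2 of 7. Gene length differed between lists, with a median of 33.5 kb for integrins and adhesion molecules, 4.90 kb for granule genes and 17.2 kb for all genes, and its part in the counts was not tested.

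**Figure D5:**
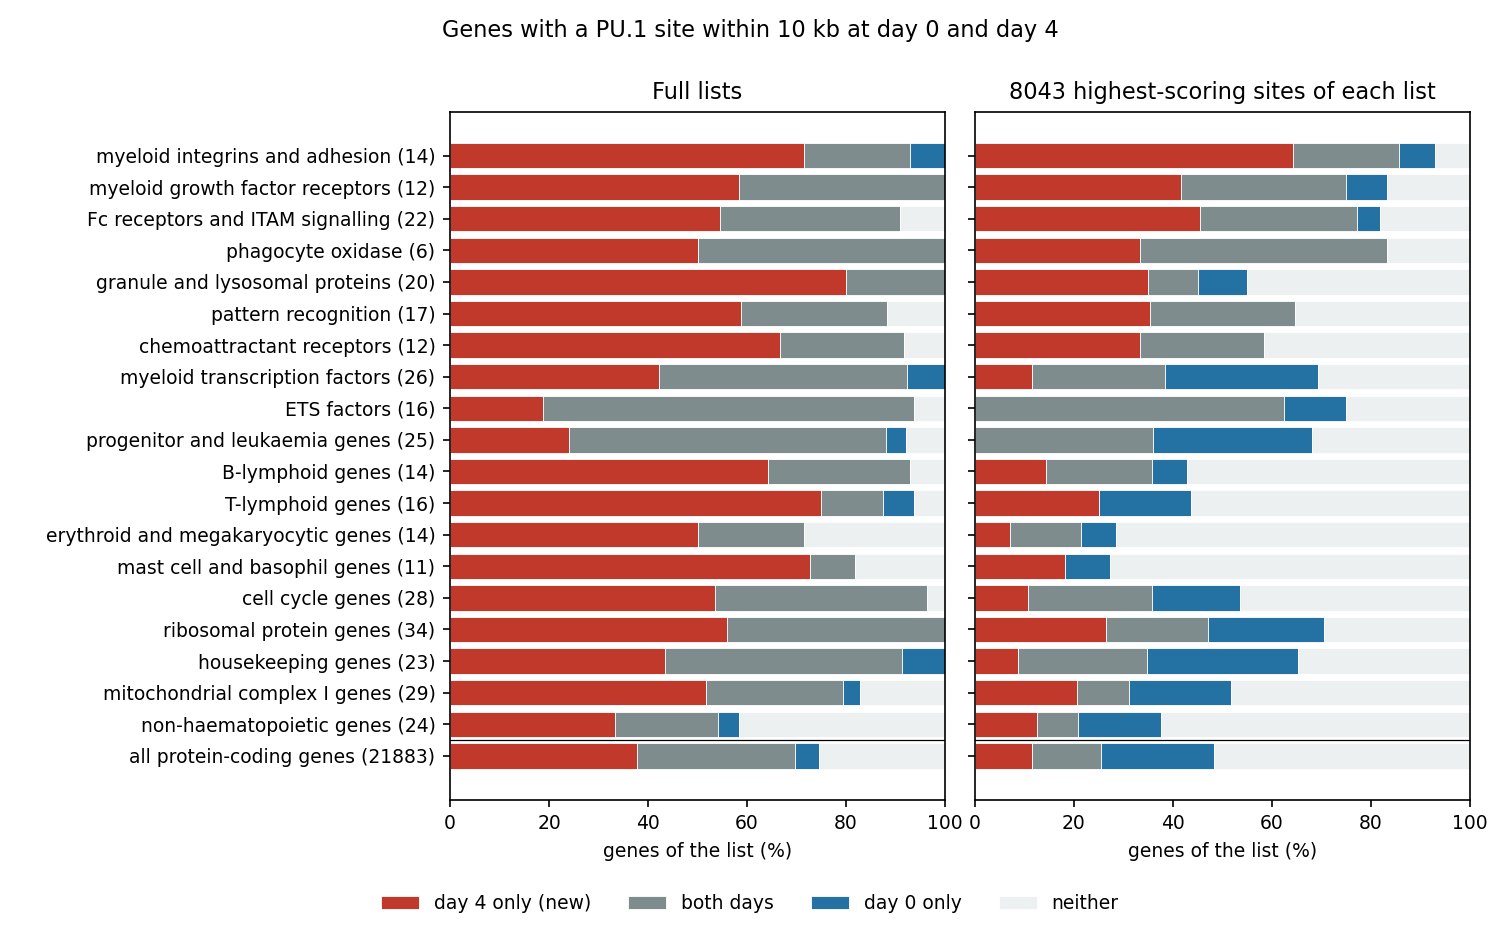
Share of the genes of each list (horizontal axis, %, number of genes in brackets) with a site within 10 kb at day 4 only (red), on both days (grey), at day 0 only (blue) or at neither (light), for the full lists on the left and the lists of equal length on the right, with all genes at the bottom. On the right 9 of 14 integrin and adhesion genes and 0 of 16 ETS factor genes were new, against 11.6% of all genes.

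Genes with a day 0 site and no day 4 site had modest scores. The highest was at Smurf2, which encodes a ubiquitin ligase of TGF-beta signalling, with 60.2 on day 0. The Smurf2 window had no day 4 site and a highest score of 185 on day 8, 195 on day 12, 13.6 in Day 12- 4, 64.3 in Day 12- 8 and 23.5 in Day 12- 12. Nrip3 and Tmem9b shared a day 0 site of 57.9 inside Tmem9b, and Bag5 had 57.6. Mtrf1 (57.4) and Txndc11 (57.2) owed theirs to sites nearer to Naa16 and Zc3h7a. All 6 genes had sites again on day 8 and day 12.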

How the data were processed

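PU.1 ChIP-seq was measured in 8 labelled samples of AML246 cells, and 7 had a list here. Not analysed here was the sample with the label of 12 days off Dox. Every deposited list gave 1 summit per peak with a score, called with MACS2 on mm10 per the submitters' processing notes. The deposited score was read as −log10 of the authors' q-value, because the lowest score (1.30104) was just above −log10 of 0.05 (1.30103). Aligner, MACS2 version, control, depth and pooling are not given in the sources used here, so a longer list may mean more depth, and scores from different lists do not measure change. Libraries were grouped by title. Each time point had 1 library, so p-values were not computed, and shares carry exact Clopper-Pearson 95% intervals.

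Genes (21883) and promoter windows came from RefSeq GRCm38.p6 tables. Of 359 genes in 19 lists 358 matched. Members, gene lists and promoters were chosen with earlier results of these data known. Named were the 10 best new, 6 best missing and 6 best shared sites, the 6 genes with most day 4 sites and the 6 with the highest day 0 score alone, and per list the 4 best new members and up to 3 members with a day 0 site alone. Genes named beyond these were chosen after their values were seen, and 1 gene the rule named is not reported here. Python 3.11.15, numpy 2.4.6, pandas 2.3.3, scipy 1.17.1 and matplotlib 3.10.9 were used, and the scripts were tested on simulated data. Alternatives covered the sharing distance, score minimum, list length, gene window and gene assignment.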

Additional observations from a re-analysis of the deposited data

How the results depend on the processing

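The share of day 0 sites called again at day 4 (16.3%) was 12.0%, 20.6%, 24.5% and 37.8% with sharing within 50 bp, 200 bp, 500 bp and 2 kb, and 17.5%, 22.7% and 37.6% with scores of at least 5, 10 and 20. At equal length (9.88%) it was 7.63%, 11.1%, 11.9% and 15.1% at those distances, and 11.7% with the 2000 highest sites. New day 4 sites numbered 31824 and 19206 with scores of at least 10 and 20, and 3578 and 1766 with the 4000 and 2000 highest. The share of new sites near gene starts (8.27%) was 8.57%, 7.91%, 7.53% and 6.74% at the 4 distances, 8.60%, 9.91% and 11.3% at the 3 score minimums, 5.89% and 11.4% within 500 bp and 2 kb of a start, 11.1% near either gene end and 8.56% on chromosomes with known starts. With sharing within 200 bp and 500 bp, new sites recurred at 44.7% and 46.3% on day 8, 39.8% and 44.5% on day 12, 10.8% and 11.6% in Day 12- 4, 3.85% and 5.75% in Day 12- 8, and 33.3% and 41.0% in Day 12- 12. Genes with a day 0 site alone (1051) numbered 1814, 1600 and 376 with the gene body alone, 2 kb and 50 kb, and 326 with scores of at least 20. At equal length they numbered 3320 and 1966 with the 4000 and 2000 highest. New genes at equal length (2528) numbered 1657 with the gene body alone and 1152 with the 2000 highest. The other 31 values over these results stayed within 1.5 times a count or inside the interval of a share. Where values moved, the cause was not tested, beyond shorter lists holding fewer sites by construction. Leaving out scaffolds, either gene end, chromosomes with known starts and the settings for gene lists were chosen after seeing the data. No paired analysis was possible because each time point had 1 library. Depth was unknown, so weak sites missing from a list may lie under its detection limit.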

Other observations

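Of the 358 matched genes in the lists, 9 had a day 0 site and none at day 4 in the full lists, against 4.80% of all genes. They were Itgb1, Klf4, Maf and Hoxa9, described above, and Bcl11b (day 0 score 5.29), Hprt (7.04), Vps29 (5.87), Ndufv2 (6.42) and Nefl (7.12). Vps29 was called again at 16.0 on day 8 and 135 on day 12, and Nefl was called on neither day. A few genes had a higher score in the day 0 list than in the much longer day 4 list, and these were chosen after their values were seen. Tnfaip3, which encodes the A20 inhibitor of NF-kappaB signalling, had 446 on day 0 and 219 on day 4. The ETS factor gene Elk4 had 62.7 and 13.6, and Cebpb, a myeloid transcription factor gene, 51.5 and 14.3.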
